A study of Mus musculus with 2 samples.

Results

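Sphingosine 1-phosphate is a signalling lipid that cells make, export, sense and destroy, and 7 mouse genes of that cycle were followed here. They were the receptor genes S1pr1, S1pr2 and S1pr3, the kinase genes Sphk1 and Sphk2, the lyase gene Sgpl1 and the phosphatase gene Sgpp1. Every probe set whose platform annotation gave exactly 1 gene symbol, that symbol being one of the 7, was taken, and 0 further probe sets named a member among several genes. This gave 15 probe sets for 7 of the 18193 genes that the array names singly. The set was chosen because all S1pr3 probe sets were lower on the array labelled knockout, so the S1pr3 ratios below are a description and not a finding from a test.

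The samples were ventral prostate from mice with the genotype U19/Eaf2 -/- and from mice with the genotype U19/Eaf2 +/+, both on a C57BL/6J background, male and 3 months old. U19/EAF2 is an androgen-induced binding partner of ELL elongation factors, studied as a prostate tumour suppressor, and the series asks what its loss does to mRNA in the gland. Each genotype was read by 1 array, so no p-value and no error between animals can be given, and every difference describes this pair of arrays. The titles name prostates in the plural; the sources used here do not say how many animals gave RNA, how the allele was made or which part of the gene it removes. The sample is called the array labelled knockout because the single-symbol Eaf2 probe set did not separate the arrays, at a signal of 702 on the array labelled knockout and 691 on the wild-type array. A probe set outside a deleted part would check nothing.

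Sphingosine kinases phosphorylate sphingosine to sphingosine 1-phosphate, phosphatases return it to sphingosine, and the lyase cleaves it for good. Outside the cell the lipid acts through a family of G-protein-coupled receptors. S1pr1 couples to Gi and is best known for vessel stability and for the exit of lymphocytes from lymphoid organs, S1pr2 signals strongly through G12 and G13, and S1pr3 couples to Gi, Gq and G12/13 and is known from vascular smooth muscle and endothelium. In tissue RNA, fewer cells of a type and less RNA per cell cannot be told apart.

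Signals are linear probe-set intensities in array units, and every ratio is the log2 of the knockout signal over the wild-type signal. A floor was set at a signal of 166, the 50th percentile of all non-control signals on both arrays. Values below it were raised to it, and a probe set below it on both arrays was given no ratio. Of the 15 probe sets, 13 exceeded the floor on both arrays, 1 on the wild-type array alone and 1 on neither. Levels of different probe sets are not compared, since probe sets differ in how brightly they bind. For the 4497 genes that both arrays read above the floor with 2 or more probe sets, ratios within a gene had a pooled SD of 0.36 on the log2 scale. This is the only error the data hold, and it leaves out animals, dissection and hybridisation.

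The upstream sequences of S1pr3 and S1pr2 are shown because S1pr3 carries the lower signals that led to the choice of these genes and S1pr2 is a receptor of the same ligand with small ratios. Each run is the 250 bases before the annotated start, from RefSeq on build GRCm38.p6, written 5′ to 3′ on the strand of the gene, with matches to GGGCGG, the letters of a GC box, on either strand in capitals. The S1pr3 window is chr13:51408368-51408617 on the plus strand and the S1pr2 window is chr9:20976794-20977043 on the minus strand.
S1pr3: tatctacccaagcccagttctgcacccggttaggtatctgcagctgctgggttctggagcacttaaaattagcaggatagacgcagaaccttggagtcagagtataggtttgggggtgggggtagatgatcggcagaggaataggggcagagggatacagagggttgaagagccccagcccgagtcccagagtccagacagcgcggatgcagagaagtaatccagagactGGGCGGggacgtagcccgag
S1pr2: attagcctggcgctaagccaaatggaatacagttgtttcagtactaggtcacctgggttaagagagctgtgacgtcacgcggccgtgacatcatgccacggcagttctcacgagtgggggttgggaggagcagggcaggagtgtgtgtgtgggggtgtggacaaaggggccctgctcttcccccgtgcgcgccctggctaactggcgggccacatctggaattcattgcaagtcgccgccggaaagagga

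The S1pr3 window held 1 GGGCGG match and the S1pr2 window 0, while 32.7% of all 32851 windows of this length held at least 1. The S1pr3 window had a GC content of 56.4% with 9 CpG pairs and the S1pr2 window 59.2% with 14, against medians of 52.4% and 6 over all windows. AGAACA, an androgen response half-site, AP-1's TGACTCA, the hypoxia core ACGTG and TATAAA, each searched on both strands, gave 0 matches in either window, and 16.1%, 4.46%, 16.6% and 12.4% of all windows held them. Windows were listed for 6 of the 7 genes, 11 in all. Among the others, the Sgpp1 window held 1 AGAACA match, and the Sgpl1 window held 3 GGGCGG matches and 1 ACGTG match. The Sphk2 windows held 1 and 2 GGGCGG matches, with 1 ACGTG match in the second. Of the 5 Sphk1 windows, which overlap in part, 2 held TGACTCA, 2 held ACGTG and 1 held TATAAA. These matches are letters only and are not evidence of a bound factor. None of these motifs contains another on either strand.

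S1pr3 read lower on the array labelled knockout in 3 of 3 probe sets, by 1.68-, 1.96- and 2.54-fold. The probe set 1438658_a_at, the brightest of S1pr3 and the only one of the suffixed kind, gave a signal of 822 on the array labelled knockout and 1383 on the wild-type array, a log2 ratio of -0.75. The probe set 1437173_at of S1pr3 gave 193 on the array labelled knockout and 378 on the wild-type array, a log2 ratio of -0.97. The probe set 1460661_at of S1pr3 gave 169 on the array labelled knockout and 429.6 on the wild-type array, a log2 ratio of -1.35. The wild-type signal was the higher one each time, and in the last case the signal on the array labelled knockout stood just above the floor of 166, so the size of that ratio depends on signals near background. The probe sets of S1pr3 spanned 0.59 on the log2 scale. Suffixed probe sets, whose names end in _a_at, _s_at or _x_at, include those that can read more than 1 transcript, and the S1pr3 ratio nearest to 0 came from the one of that kind.

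The size of these ratios can be read against the whole array. Of 20538 named probe sets that reached the floor on at least 1 array, 54.8% were lower on the array labelled knockout by any amount and 1.04% were at least 2-fold lower. Only 1 S1pr3 probe set, 1460661_at, was past 2-fold. Log2 ratios at or below those of 1438658_a_at, 1437173_at and 1460661_at of S1pr3 were found in 3.48%, 1.17% and 0.243% of these probe sets. Dim probe sets were past 2-fold more often, with 1.47% at least 2-fold lower where the geometric mean signal was under 4 times the floor and 0.455% where it was above, and 2 of the 3 S1pr3 probe sets were in the dimmer class. Among 1116 genes that had 3 probe sets exceeding the floor on both arrays, all 3 were lower in 16.9% and all 3 were at least 1.5-fold lower in 0.269%, which is 3 genes including S1pr3. The genes were chosen by this same contrast, so nothing is read from these shares.

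**Figure D1:**
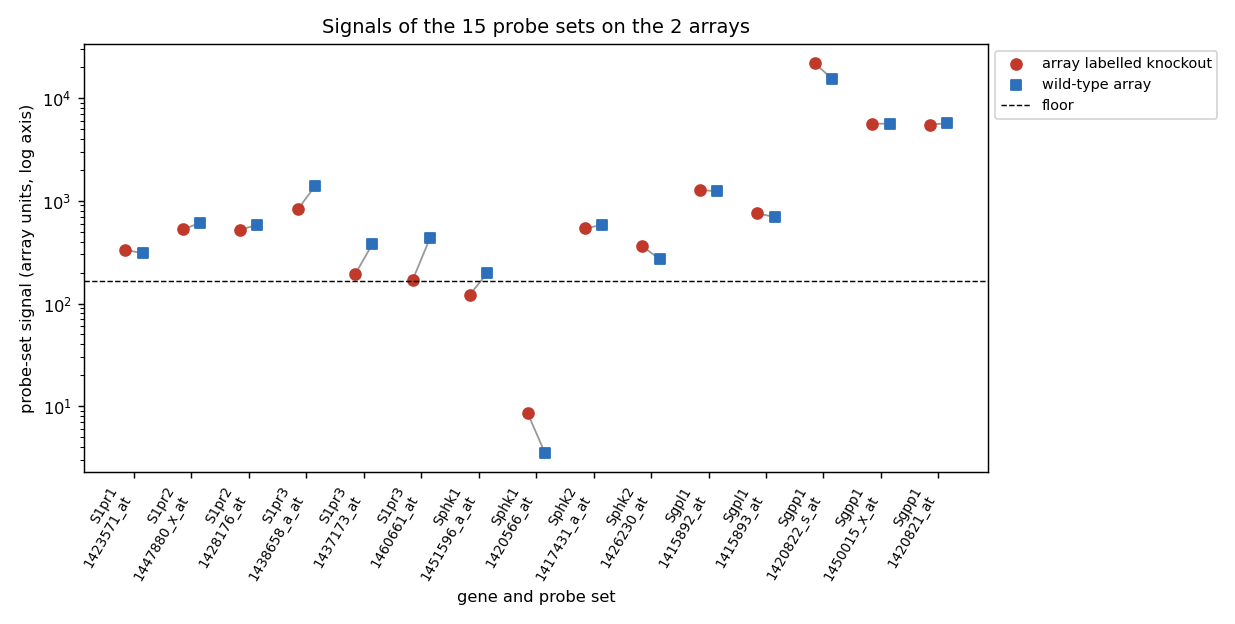
Probe-set signal in array units on a log axis for the 15 probe sets of the 7 genes, with the array labelled knockout as red circles on the left of each pair, the wild-type array as blue squares on the right, and the floor of 166 as a dashed line. The 3 S1pr3 pairs climb toward the wild-type square, while most other pairs lie nearly level, apart from the Sphk1 pairs at the bottom.

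The other receptors differed far less. S1pr1 has 1 probe set, 1423571_at, which gave 335 on the array labelled knockout and 307 on the wild-type array, a log2 ratio of 0.13. For S1pr2 the probe set 1447880_x_at gave 525 on the array labelled knockout and 608 on the wild-type array, a log2 ratio of -0.21. The second S1pr2 probe set, 1428176_at, gave 522 on the array labelled knockout and 584 on the wild-type array, a log2 ratio of -0.16 that turned to 0.03 when each array was centred on its median. The S1pr1 ratio was 0.32 under median centring and 0.24 under quantile normalization and loess. Both S1pr2 values and the S1pr1 value are smaller than the SD of 0.36 among probe sets of the same gene. The difference between S1pr3 and the other receptors was not tested, since there is 1 array per genotype.

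Of the receptors outside the set, S1pr4 read somewhat lower and S1pr5 was under the floor, and the exporter read alike on both arrays. S1pr4, the receptor of blood cells, gave 246 on the array labelled knockout and 305 on the wild-type array, a log2 ratio of -0.31 in its single probe set. S1pr5, known from natural killer cells and oligodendrocytes, was far below the floor at 4.04 on the array labelled knockout and 5.32 on the wild-type array. Spns2, which exports sphingosine 1-phosphate from endothelium, gave 1139 on the array labelled knockout and 1116 on the wild-type array, a log2 ratio of 0.03.

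The kinase genes gave no common direction. Sphk1, the kinase long studied in human prostate cancer cells, was close to or below the floor: its probe set 1451596_a_at gave 122 on the array labelled knockout, below the floor, and 198 on the wild-type array, so that it was at least 1.20-fold lower. Its other probe set, 1420566_at of Sphk1, read 8.62 on the array labelled knockout and 3.55 on the wild-type array, both so far under the floor that no ratio is given. Sphk2, the kinase found in nucleus and mitochondria, had probe sets that disagreed. The probe set 1417431_a_at of Sphk2 gave 539 on the array labelled knockout and 581 on the wild-type array, a log2 ratio of -0.11 that was 0.08 under median centring. The probe set 1426230_at of Sphk2 gave 360.0 on the array labelled knockout and 269.6 on the wild-type array, a log2 ratio of 0.42. They differed by 0.53 on the log2 scale, more than either differed from 0.

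The degrading enzymes read alike on both arrays except in 1 probe set. Sgpl1, the lyase that cleaves sphingosine 1-phosphate for good, gave 1275 on the array labelled knockout and 1234 on the wild-type array with 1415892_at, a log2 ratio of 0.05. With 1415893_at, Sgpl1 gave 752 on the array labelled knockout and 695 on the wild-type array, a log2 ratio of 0.11. Both lyase probe sets were slightly higher on the array labelled knockout, by less than the SD of 0.36, and their log2 ratios were 0.24 and 0.31 under median centring.

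Sgpp1, the phosphatase of the endoplasmic reticulum that turns the lipid back into sphingosine, had 1 probe set that read higher and 2 that read alike. The probe set 1420822_s_at of Sgpp1 gave 21656 on the array labelled knockout and 15393 on the wild-type array, 1.41-fold higher. The probe set 1450015_x_at of Sgpp1 gave 5602 on the array labelled knockout and 5625 on the wild-type array, a log2 ratio of -0.01. The probe set 1420821_at of Sgpp1 gave 5471 on the array labelled knockout and 5701 on the wild-type array, a log2 ratio of -0.06. The higher reading thus came from 1 suffixed probe set, and the other 2 differed from 0 by less than 0.1, with 0.19 and 0.13 under median centring. Sgpp2, the second phosphatase, was below the floor on both arrays, at 41.4 on the array labelled knockout and 143 on the wild-type array.

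**Figure D2:**
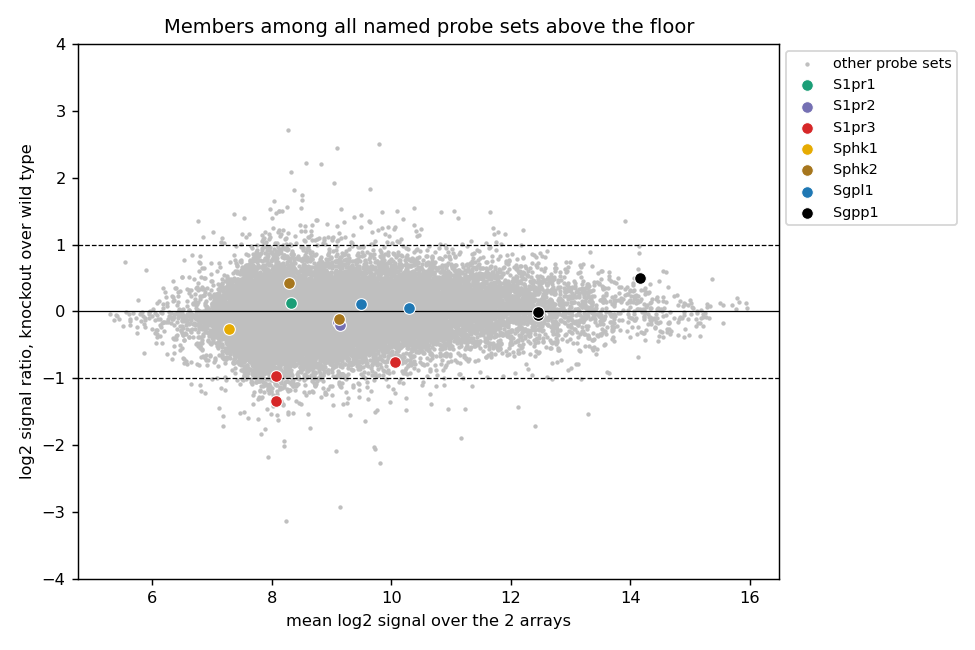
Log2 signal ratio, knockout over wild type, against mean log2 signal for the 20538 named probe sets that reached the floor on at least 1 array, with the 14 such probe sets of the 7 genes in colour and dashed lines at 2-fold. The S1pr3 points lie in the lower part of the cloud, between -0.75 and -1.35, where other probe sets lie as low or lower. The points of the other members lie between -0.26, a bound of Sphk1 set by the floor, and 0.49.

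Over the set, 9 of 14 probe sets with a ratio were lower on the array labelled knockout and 5 were higher, beside 54.8% lower over all named probe sets. Their median log2 ratio was -0.08, against -0.04 over all 20538. Without S1pr3, 6 of 11 were lower and the median was -0.01. For the enzymes alone, 4 of 8 were lower, with a median of 0.02. Taking each gene by its brightest probe set, 4 of 7 genes were lower, against 53% of 11671 genes, and 0 of 7 were past 2-fold, against 1.47%. The median log2 ratio of all named probe sets shifted by 0.18, to 0.14, under median centring. It was 0.002 under quantile normalization and 0.006 under loess. Under median centring 5 of the 14 probe sets were lower, all 3 of S1pr3 among them. The share of all named probe sets lower under that scaling is not given, and the 54.8% does not apply to it.

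The settings changed the size of the S1pr3 ratios, and their direction stayed the same. This is no support, since the genes were chosen by that direction. Flooring cannot turn a sign, and median centring adds the same amount to each ratio above the floor. The log2 ratio of 1438658_a_at of S1pr3 ran from -0.77 to -0.56 over the 8 settings, and that of 1437173_at of S1pr3 from -0.97 to -0.78 over the 7 in which it reached the floor. The log2 ratio of 1460661_at of S1pr3 ran from -1.35 to -1.13 except with the floor at the 70th percentile, where the knockout signal lay below the floor and the ratio became a bound of -0.04.

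**Figure D3:**
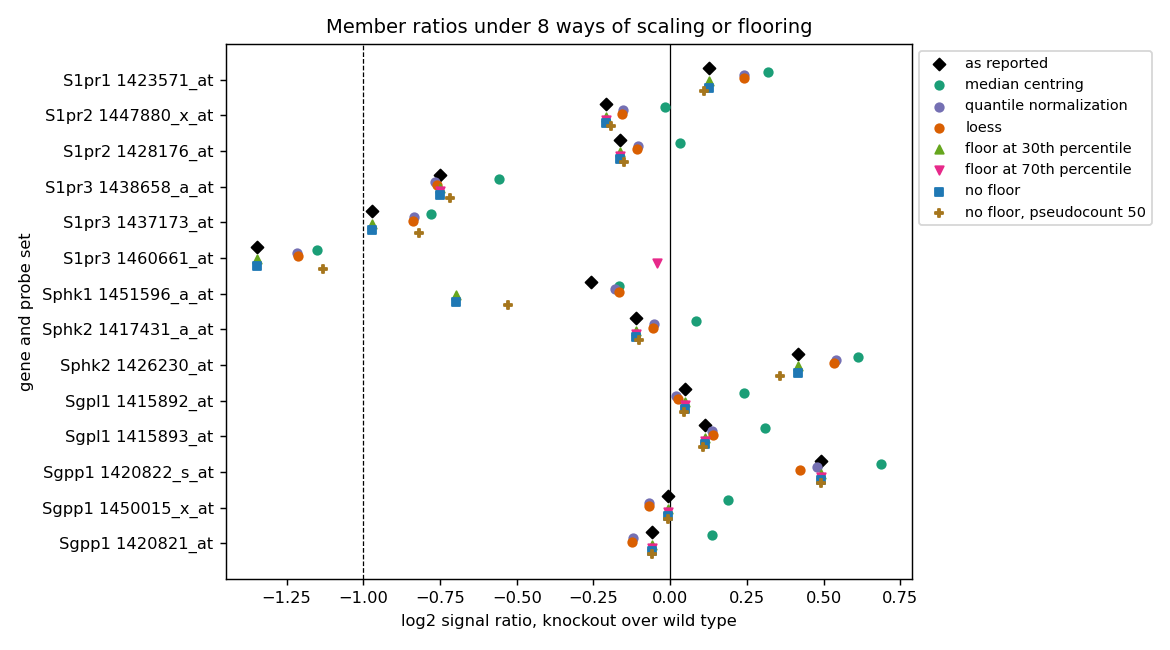
Log2 signal ratio, knockout over wild type, of the 14 probe sets with a ratio under each of 8 ways of scaling the arrays or flooring low signals, 1 symbol per setting, with the dashed line at 2-fold lower. All S1pr3 symbols lie left of 0, between -1.35 and -0.04. So do those of Sphk1, between -0.70 and -0.17, and of 1447880_x_at of S1pr2, between -0.21 and -0.02. The symbols of S1pr1, Sgpl1, 1426230_at of Sphk2 and 1420822_s_at of Sgpp1 lie right of 0 in every setting shown. The remaining probe sets of S1pr2, Sphk2 and Sgpp1 lie between -0.16 and 0.19.

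The wider pathway was described through lists that cover the lipid's supply, its handling, its relatives and the proteins its receptors act through. Each gene was taken by its brightest probe set. The counts of each list are to be read beside the 53% of all 11671 genes that were lower. Of 14 other genes of sphingosine 1-phosphate handling, 10 reached the floor, 6 higher and 4 lower. Their median log2 ratio of 0.03 was close to the -0.03 of all 11671 genes, and was -0.13 over probe sets. The highest was Abcc1, a transporter that can export the lipid, at 331 on the array labelled knockout and 255 on the wild-type array, although its other probe set went the opposite way. Plpp2, a lipid phosphate phosphatase, was among the lowest, at 2768 on the array labelled knockout and 3418 on the wild-type array. Aldh3a2, which oxidises the aldehyde that the lyase releases, gave 4994 on the array labelled knockout and 4327 on the wild-type array. No gene of this list was past 2-fold.

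The genes that make ceramide and free sphingosine were split, with 7 of 15 higher, 8 of 15 lower and a median log2 ratio of -0.05. That median was 0.15 under median centring and -0.09 under quantile normalization and loess. Degs2, a desaturase that can also hydroxylate dihydroceramide, was the lowest at 932 on the array labelled knockout and 1502 on the wild-type array, 1.61-fold lower in its single probe set. Cers4, a ceramide synthase, was 1.39-fold lower. The highest were Sptlc2, a subunit of the enzyme that begins sphingolipid synthesis, at 1287 on the array labelled knockout and 1022 on the wild-type array, and Degs1, the main dihydroceramide desaturase, at 1.20-fold higher. Among genes of sphingomyelin and glycosphingolipids, 15 of 22 were higher, with a median of 0.08. Psap, the precursor of the lysosomal saposins, was 2.23-fold higher, at 5710.4 on the array labelled knockout and 2562 on the wild-type array, and its other probe set had a log2 ratio of 0.66. B4galt6, a lactosylceramide synthase, was 1.56-fold higher, with 2 of its 3 other probe sets opposite, and the lowest were Glb1 at -0.43 and the acid sphingomyelinase Smpd1 at -0.37.

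Among G proteins and effectors that the receptors use, 10 of 23 were higher and 13 lower, with a median of -0.06. That median was 0.14 under median centring and -0.06 under quantile normalization and loess. Rgs5, a regulator that ends Gi and Gq signals and a pericyte gene, gave 315 on the array labelled knockout and 465 on the wild-type array, a log2 ratio of -0.56. Its other probe set above the floor on each array had -0.16, and a further one, under the floor on the array labelled knockout, had a bound of -0.34. Gnb2, a beta subunit, also had -0.56. Rock1, a kinase that promotes actomyosin contraction, was 1.496-fold higher, at 4589 on the array labelled knockout and 3068 on the wild-type array, and its 3 other probe sets above the floor were higher too. Plcb3, a phospholipase that Gq activates, read 283 on the array labelled knockout and 161, under the floor, on the wild-type array, and was at least 1.70-fold higher.

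The list for the related lipid lysophosphatidic acid also holds Lipg and the cannabinoid receptor genes Cnr1 and Cnr2. It was mostly too dim to compare, with 5 of 9 genes below the floor on both arrays, Cnr1 and Cnr2 among them. The 4 measured genes all read lower on the array labelled knockout, beside 53% lower over all 11671 genes. Their median log2 ratio was -0.45 and stayed negative under all 3 scalings. Lpar6, a receptor, gave 775 on the array labelled knockout and 1164 on the wild-type array, and Lpar1, another receptor of the lipid, 837 on the array labelled knockout and 1069.6 on the wild-type array. Lipg, endothelial lipase, had -0.55 with its other probe set opposite, and Liph, which makes the lipid, had -0.25.

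Markers of the cells that carry these receptors were set beside the S1pr3 values. Over all 11671 genes, 53% were lower on the array labelled knockout. Of 15 smooth muscle and pericyte markers 11 were lower, with a median of -0.21. The median was -0.02 under median centring, with 8 of 15 lower. Under quantile normalization and loess it was -0.27, each with 11 of 15 lower. The summed signal of these markers was 51713 on the array labelled knockout and 66013 on the wild-type array. The lowest were the contractile genes Cnn1 at -0.87 and Myl9 at -0.86, and the highest were the pericyte genes Notch3 at 0.39 and Pdgfrb, a bound, at 0.19. Of 12 fibroblast markers 10 were lower, with a median of -0.18. That median crossed to 0.005 under median centring, with 6 of 12 lower. It was -0.22 under quantile normalization and -0.21 under loess, each with 10 of 12 lower. Summed signals were 35803 on the array labelled knockout and 37640.3 on the wild-type array. Fbln2 was 2.17-fold lower and Pdgfra had -0.78, while Gsn had 0.25 and Fbln1 0.09, both with opposite probe sets. Whether stromal content has a part in the S1pr3 ratios was not tested.

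Endothelial markers were largely below the floor. Of 16, 9 reached it and 6 of these were lower, beside 53% of all 11671 genes. The median of the 9 was -0.12, the bound of Tek, and Tek was at -0.03 under each of the 3 scalings. Under each scaling 10 genes reached the floor and 5 of them were lower. The medians of those 10 were 0.02 under median centring, 0.01 under quantile normalization and 0.02 under loess, over a changed set of genes. The summed signal of the list was 2925 on the array labelled knockout and 3263 on the wild-type array. Pecam1, Tie1, Robo4, Vwf, Erg, Sox17 and Plvap were below the floor on both arrays. Cdh5 gave 280.4 on the array labelled knockout and 277 on the wild-type array, and Kdr gave 479.8 on each. Under median centring Cdh5 was at 0.21 and Kdr at 0.19. Egfl7 had -0.28, and Flt1 and Tek had bounds of -0.18 and -0.12. Emcn at -0.72 and Esam at -0.68 were the lowest, and Cldn5 at 0.13 and Eng at 0.06 the highest. The part of endothelial content in the S1pr3 ratios was not tested.

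Of 15 leukocyte markers with a probe set, 7 were below the floor on both arrays, among them the T-cell genes Cd3e, Cd3g and Cd4, and 5 of the other 8 were higher. The median log2 ratio of the 8 was 0.08. The median of the list was -0.18 without suffixed probe sets and -0.04 with no floor. The summed signal of all 15 was 4431 on the array labelled knockout and 4596 on the wild-type array. Ptprc at 0.33 and Cd8a at 0.29, with an opposite Cd8a probe set, were highest, and the macrophage genes Cd68, a bound of -0.58, and Lyz2 at -0.47 lowest.

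Both samples carried the labelled tissue's markers. All 10 luminal and ventral prostate markers with a probe set were above the floor on both arrays, with Spink5 highest at 0.59 and Tmprss2 next at 0.53, with 1 of 2 other Tmprss2 probe sets opposite, and Pbsn lowest at -0.38 before Hoxb13 at -0.17, which was 0.03 under median centring. Of these 10, 4 were lower, with a median of 0.11 and summed signals of 199596 on the array labelled knockout and 188336 on the wild-type array. Basal markers were split, 2 of 5 lower with a median of 0.04 that was -0.29 with the lower floor. They ran from Krt5 at -0.62 and Itgb4, a bound of -0.46, to Trp63 at 0.09 and Dst at 0.72. Adipocyte markers were higher in 3 of 5, with a summed signal of 3187 on the array labelled knockout and 1579 on the wild-type array and a median of 0.62, which is the bound of Adipoq and was 0.84 with the lower floor and 0.43 over probe sets. Car3 at 2.45 and Fabp4 at 0.84 led, the other Fabp4 probe set being at 0.03, while Plin4 had -0.31 and Retn -0.18. The 3' over 5' signal ratio of the Actb control probe sets, a guide to RNA quality, was 1.65 on the array labelled knockout and 1.25 on the wild-type array. That of the Gapdh control probe sets was 0.85 on the array labelled knockout and 0.71 on the wild-type array. The part of fat content and RNA quality in the S1pr3 ratios was not tested.

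**Figure D4:**
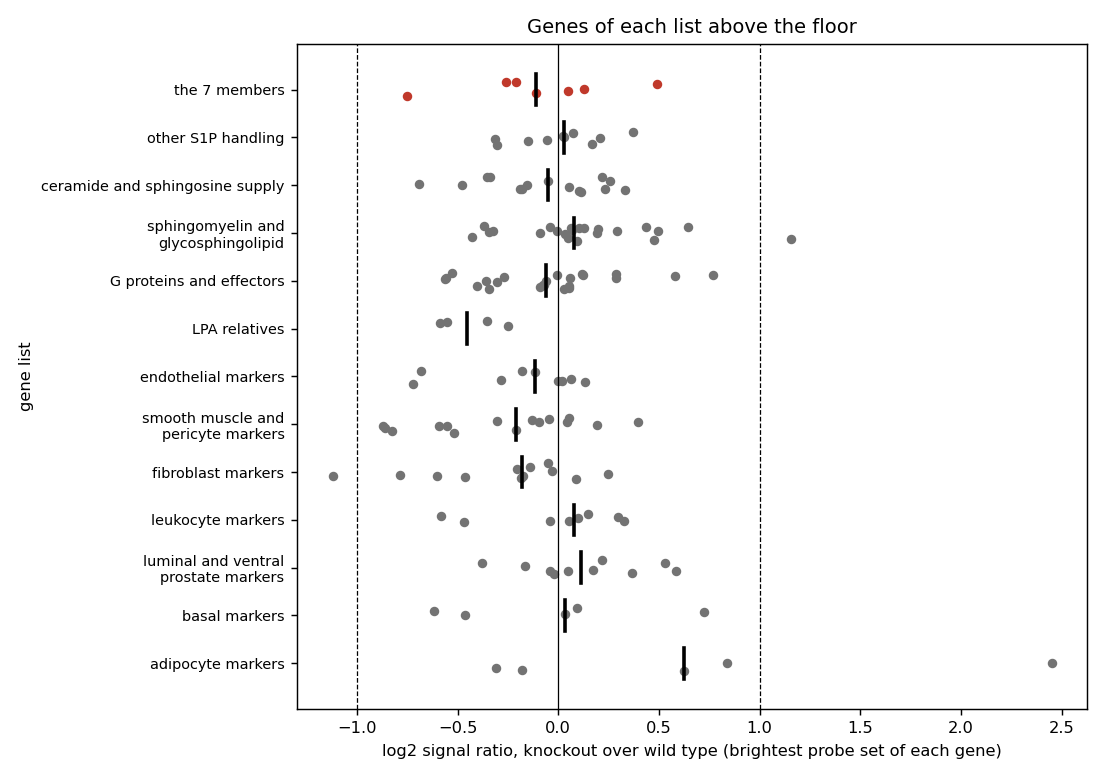
Log2 signal ratio, knockout over wild type, of each gene that reached the floor, by its brightest probe set, for the 7 members in red and 12 further lists in grey, with black bars at list medians and dashed lines at 2-fold. The members run from -0.75 to 0.49, the LPA (lysophosphatidic acid) relatives all lie below 0, and the adipocyte list has the highest median, 0.62, a bound set by the floor.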

How the data were processed

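The deposited values are linear probe-set intensities of 45101 probe sets, 1 Affymetrix mouse array per genotype. Per the labels' protocols, 5 ug of total RNA was made into biotin-labelled cRNA. The submitters' processing notes name GCOS 1.4; its settings and detection calls were not used here. The mean intensity without the highest and lowest 2% was 500.0 on each deposited array, so arrays had been scaled as a whole.

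Of 45037 non-control probe sets, 34945 had 1 gene symbol, 932 several and 9160 none. Entrez IDs matched 34741 to a GRCm38.p6 gene table, and 0 symbols changed. Ratios are log2, knockout over wild type, with no pseudocount, computed in Python 3.11.15 and tested on simulated arrays. With 1 array per genotype there is no test, and precision is limited by the number of arrays. The brightest probe set, by mean log2 signal, stood for a gene.

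All probe sets of the 7 members are given. In other lists, the 2 highest and 2 lowest genes and any past 2-fold are named, plus S1pr4, S1pr5, Sgpp2 and Spns2. All endothelial markers, some genes below the floor and those of the closing observations are named besides. Genes of like pattern are not named, since 2 arrays give a single ratio. Members and lists were chosen with earlier results of these data known. The alternatives were median centring, quantile normalization, loess (span 0.4, statsmodels 0.14.6), a lower floor (30th percentile), a higher floor (70th percentile), omission of the floor with or without a pseudocount of 50, the median over probe sets, no suffixed probe sets, and a 1.5-fold threshold.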

Additional observations from a re-analysis of the deposited data

How the results depend on the processing

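No paired analysis was possible because each genotype has 1 array, and for the same reason no replicate could be left out. The S1pr3 median log2 ratio of -0.97 was -0.40 when the floor stood at the 70th percentile, where 1 of its 3 probe sets dropped out and another became a bound. Under median centring the median over the 14 member probe sets, -0.08, turned to 0.11, beside 0.14 over all named probe sets. Under that scaling 5 of 14 were lower in place of 9. Without suffixed probe sets 4 of 8 were lower. The median without S1pr3, chosen after seeing the data, was -0.01. The share of genes past 2-fold, 1.47%, was 4.75% for a floor at the 30th percentile, 0.773% for one at the 70th, 15.7% with no floor, 4.02% with a pseudocount of 50 and 11.0% at 1.5-fold. A shift in the share of lower genes was marked when it left a 95% exact binomial interval over the genes of the list. Genes on the same pair of arrays are not independent, so the interval is only a mark and measures no error between animals. Fibroblast markers were marked at 50% under median centring and 100% without suffixed probe sets. Luminal and ventral prostate markers were marked at 10% under median centring, and adipocyte markers at 0% of 2 genes under the higher floor. The shares lower over all genes under these alternatives are not given, so the marked shares have no background beside them. The medians of 7 of 12 lists, over the genes with a ratio in each setting, changed sign under at least 1 alternative, 4 of them under median centring. Where no value is given for it, the cause of these shifts was not tested.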

Other observations

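Among the genes that supply ceramide, the ceramide synthases and the subunits of serine palmitoyltransferase lay on opposite sides of no difference, a grouping chosen after the values were seen. Ceramide synthases join a fatty acid to the sphingoid base. Of 5 with a probe set, 4 reached the floor and all 4 read lower on the array labelled knockout, at a median log2 ratio of -0.34. The share lower over all 11671 genes was 53%. Cers2 gave 2968 on the array labelled knockout and 3359 on the wild-type array, Cers5 gave 1106 on the array labelled knockout and 1397 on the wild-type array, and Cers6 gave 773 on the array labelled knockout and 986 on the wild-type array. Under median centring 3 of 4 were lower at a median of -0.15, Cers2 being at 0.02. The share lower over all genes under that scaling is not given. Under quantile normalization and loess all 4 were lower, at a median of -0.35 in each.

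Serine palmitoyltransferase catalyses the entry step of the pathway. Its 3 subunit genes were all higher as reported, with a median log2 ratio of 0.23, and under quantile normalization Sptlc1 was at -0.01. The median was 0.43 under median centring, 0.30 under quantile normalization and 0.29 under loess. Sptlc3 gave 559 on the array labelled knockout and 476 on the wild-type array. Sptlc1 gave 1921 on the array labelled knockout and 1853 on the wild-type array, and of its 3 other probe sets 1 went the opposite way, with a log2 ratio of -0.51. Apart from Cers4, at -0.48, and that Sptlc1 probe set, the ratios of these genes as reported were smaller than the SD of 0.36 among probe sets of the same gene. Under median centring Sptlc2 at 0.53 and Sptlc3 at 0.43 exceeded that SD, and Cers4 at -0.28 did not.

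Acer1, an alkaline ceramidase that frees sphingosine, and Apom, the plasma carrier of sphingosine 1-phosphate, were below the floor on both arrays. Acer1 read 111 on the array labelled knockout and 24.0 on the wild-type array, and Apom read 68.0 on the array labelled knockout and 19.4 on the wild-type array.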
